A study of Mus musculus with 6 samples.

Results

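Complement is a cascade of plasma proteins that tags particles for uptake by phagocytes, and 9 of its component genes are described here in red pulp macrophages, cells of the spleen that clear aged red blood cells. The genes were C1qa, C1qb, C1qc, C2, C3, C4b, C6, Cfb and Cfp, out of 20018 genes that could be named on the array. They were chosen from earlier results of the same knockout against wild-type comparison, so their differences between genotypes are given as a description, with no test. Each symbol was matched through the RefSeq accession of the probe. C3 had 2 probes and the other 8 genes had 1 each, and all 10 probes were well above background on all 6 arrays.

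Macrophages were sorted by flow cytometry from spleens of C57BL/6 mice aged 8 to 9 weeks, 3 wild type and 3 with a knockout of Bach2, a transcription factor that represses genes with Maf recognition elements. Each mouse was a separate replicate with 1 single-colour Cy3 array. The third wild-type mouse was a female, and the remaining 5 were males. The sources used here do not give how the Bach2 allele was made or which markers set the sort gate. On the single slide, wild-type arrays filled row 1 and knockout arrays row 2, which means that genotype and row cannot be told apart. Columns 1, 2 and 3 of the slide each carried a mouse of both genotypes. Both mice of column 3 carry the tag P6 in their labels, and only there was a female set beside a male. The column, the tag and sex cannot be told apart there.

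Levels are log2 processed signals minus the 75th percentile of all probes on that array, with means ± SD over 3 mice. Differences are knockout minus wild type on the log2 scale, with the SE of the limma fit across all genes. Precision is limited by the number of arrays. The percentile ranged 3.49-fold and had its lowest value, 764 signal units, on wild-type replicate 3 and its highest, 2664, on knockout replicate 3, the arrays of column 3. Bach2 read -0.90, 0.02 and -1.35 in wild type and -2.24, -3.72 and -1.15 in knockout on its brighter probe, with overlap. Where that probe lies against the deletion is unknown here, so it checks nothing about the labels. Of 11 red pulp macrophage markers with a probe, 10 were well above background on all arrays. In bulk RNA, fewer cells of a type and less RNA per cell cannot be told apart.

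The classical route of complement starts with C1q, a recognition protein built from the products of C1qa, C1qb and C1qc, and leads to cleavage of C4 and C2, which form an enzyme that cleaves C3. In the alternative route factor B (Cfb) forms such an enzyme with a fragment of C3, and properdin (Cfp) stabilises it. C6 is a late component that helps to build the membrane attack complex. Macrophages are a main source of C1q, whereas much of the other circulating complement comes from the liver.

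Across the members, 6 of 9 genes had a difference below 0 and 3 above, beside 60.7% and 39.3% of all 18405 entries tested. The median difference was -0.37 over the members and -0.11 over all entries. The genotypes did not overlap for 1 of 9 genes, C4b, which was higher in knockout. Of all entries, 1.14% were higher without overlap and 1.74% lower, 2.89% in either direction. Nothing is read from these counts, because the members came from this contrast. With Benjamini-Hochberg adjustment, limma called 0% of all entries higher and 0% lower at a threshold of 0.05, and 1.24% had an unadjusted p below it.

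**Figure D1:**
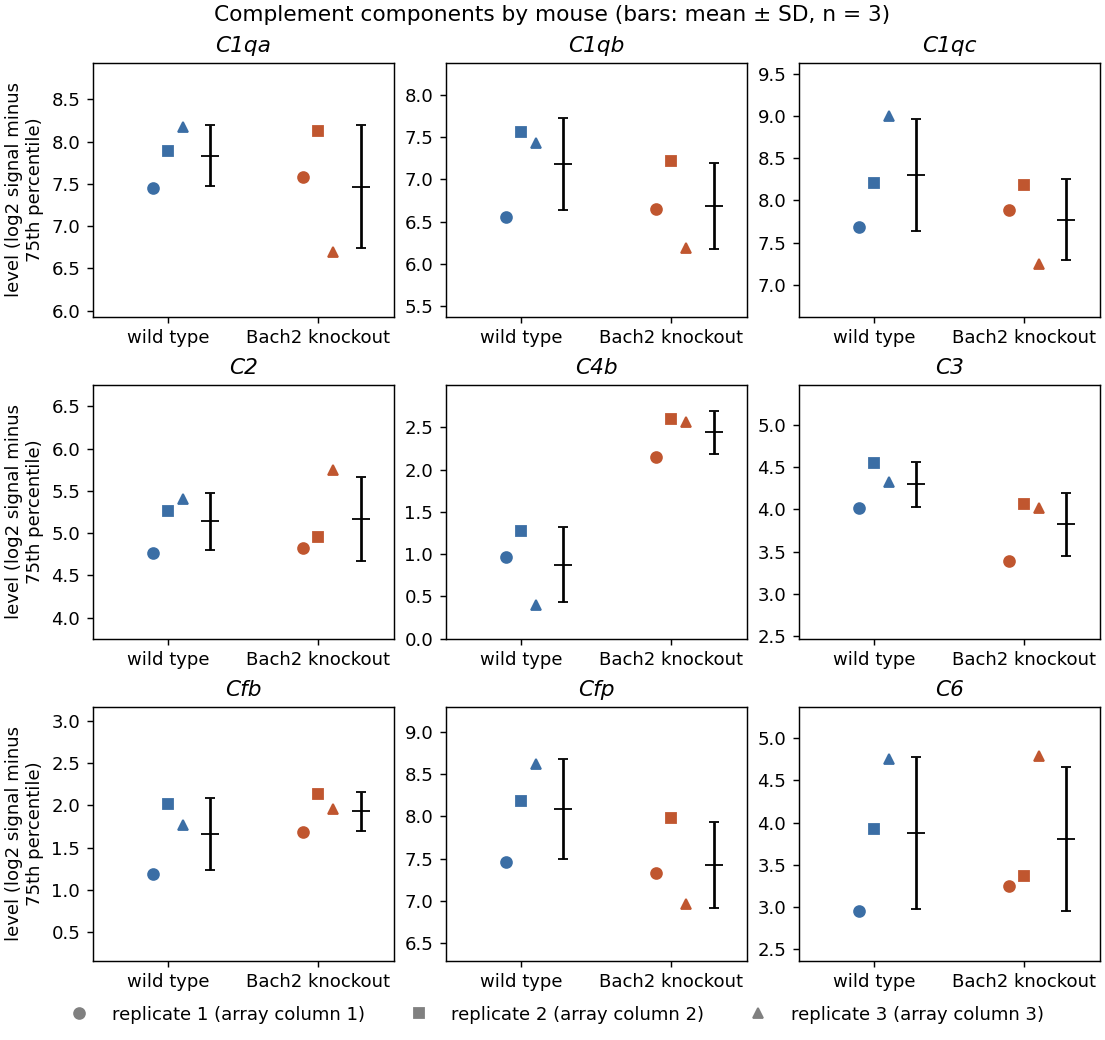
Level of each gene on each array, as log2 signal minus the 75th percentile of that array, with 1 symbol per mouse and the mean ± SD (n = 3) of each genotype. C4b ran from 0.40 to 1.27 in wild type and from 2.15 to 2.60 in knockout, and the genotypes overlapped for the brighter probe of each other gene.

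The promoter table of RefSeq assembly GRCm38 matched C1qb, C1qc, C3, C6 and Cfp, 5 of the 9 genes, but not C1qa, C2, C4b and Cfb. The 250 bases before the start of C1qb and C1qc are shown because they encode chains of 1 protein, and those of Cfp because its levels lay closest to those of C1qc among the members. Capitals mark matches on either strand to GAGGAA, the core bound by the macrophage factors PU.1 and Spi-C, or to TGACNNNGC, the core of the antioxidant response element. All lie on the minus strand and are written 5′ to 3′ along the gene.
C1qb (chr4:136886201-136886450): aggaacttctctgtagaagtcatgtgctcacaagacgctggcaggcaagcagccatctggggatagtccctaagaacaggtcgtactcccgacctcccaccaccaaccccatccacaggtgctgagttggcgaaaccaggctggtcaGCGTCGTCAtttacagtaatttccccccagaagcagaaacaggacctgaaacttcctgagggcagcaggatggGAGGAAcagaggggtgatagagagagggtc
C1qc (chr4:136892915-136893164): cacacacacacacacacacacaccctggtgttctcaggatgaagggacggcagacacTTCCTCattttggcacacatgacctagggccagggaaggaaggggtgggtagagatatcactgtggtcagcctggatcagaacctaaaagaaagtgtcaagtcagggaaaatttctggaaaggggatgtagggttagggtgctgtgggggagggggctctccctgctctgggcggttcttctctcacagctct
Cfp (chrX:20931556-20931805): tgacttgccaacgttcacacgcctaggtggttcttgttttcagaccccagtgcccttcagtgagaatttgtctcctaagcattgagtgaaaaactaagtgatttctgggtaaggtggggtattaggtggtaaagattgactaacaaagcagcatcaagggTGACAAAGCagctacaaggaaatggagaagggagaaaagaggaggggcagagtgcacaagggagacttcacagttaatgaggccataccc

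GAGGAA lay 30 bases before the start of C1qb and, on the opposite strand, 193 bases before that of C1qc, and 23.3% of all 32851 promoters of this length hold it. TGACNNNGC lay 103 bases before C1qb, on the opposite strand, and 90 bases before Cfp, and 10.2% of promoters hold it. TGAGTCA, the core of the Maf recognition element and of AP-1 sites, was found in 0 of the 5 member promoters and in 4.46% of all. GAAANNGAA, the core of the interferon-stimulated response element, and TTCNNNGAA, a STAT site, were found in 0 of 5, against 7.13% and 7.02% of all. These matches describe letters in a window.

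The C1q chain genes gave high signals that varied little before scaling. Processed signals varied 1.55-fold for C1qa, 2.06-fold for C1qb and 1.42-fold for C1qc over the 6 arrays, less than the 3.49-fold range of the percentile subtracted from them. The 3 brightest spike-in control probes spanned 373681 to 582224.5 signal units over the arrays. C1qc reached that band on 3 arrays, and C1qa and C1qb on 0. Set against the 3 brightest spike-in probes of the same array only, C1qc reached them on 1 array. The scanner files flagged 0 spots as saturated on every array. The part of a signal ceiling in these values was not tested.

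**Figure D2:**
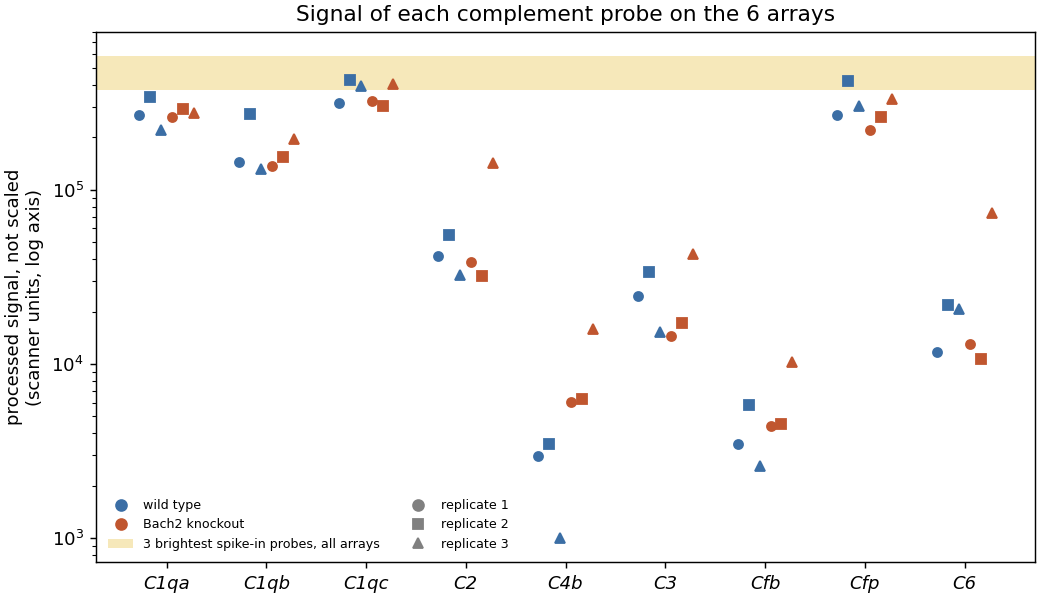
Processed signal of each gene on the 6 arrays before scaling, on a log axis, with colour for genotype and a band for the 3 brightest spike-in probes. C1qa, C1qb, C1qc and Cfp lie under or in the band and vary at most 2.06-fold, whereas C4b varies 15.7-fold and C6 6.89-fold.

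C1qa read 7.45, 7.88 and 8.17 in wild-type replicates 1, 2 and 3, and 7.58, 8.13 and 6.69 in knockout. C1qb read 6.55, 7.56 and 7.43 in wild type, and its knockout values were 6.64, 7.22 and 6.19. C1qc read 7.69, 8.21 and 9.00 in wild type, against 7.89, 8.19 and 7.24 in knockout. For each chain knockout replicate 3 had the lowest of the 6 values, and both other knockout mice lay within the wild-type range.

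The differences were -0.37 ± 0.52 for C1qa, -0.50 ± 0.50 for C1qb and -0.53 ± 0.52 for C1qc (SE). In column 3 the chains differed by -1.48, -1.24 and -1.76. In column 1 they differed by 0.13, 0.09 and 0.20, and in column 2 by 0.25, -0.34 and -0.03. The gap was thus wide in 1 column of 3. Bright genes at large had the same pattern: among 1264 entries at a mean level of at least 6, the median difference was -0.03, -0.05 and -0.87 in columns 1, 2 and 3, and 95.3% of them had a mean difference below 0. Under quantile normalization the chains gave 0.04, -0.17 and 0.03, so the sign turned for C1qa and C1qc. Without knockout replicate 3 they gave 0.02, -0.25 and -0.26.

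**Figure D3:**
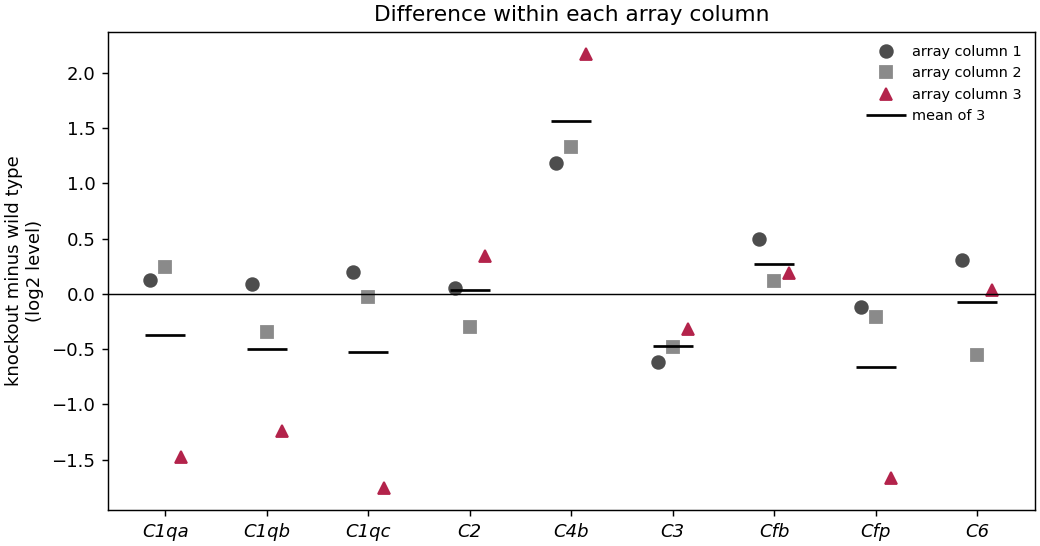
Difference between the knockout and the wild-type array within each array column, on the log2 scale, for the 9 genes. C1qa, C1qb, C1qc and Cfp lie between -1.76 and -1.24 in column 3 and between -0.34 and 0.25 in columns 1 and 2, while C4b lies between 1.19 and 2.17.

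The balance of the chains within an array does not depend on the percentile, which cancels, but quantile normalization can move it. Its SD over the 6 arrays was 0.27 for C1qc minus C1qa, 0.31 for C1qc minus C1qb and 0.25 for C1qa minus C1qb. The genotypes differed in these balances by -0.16, -0.03 and 0.13, less than that spread with all mice, but single mice moved the values. C1qa minus C1qb was 0.27 (SD 0.25) without knockout replicate 3, 0.25 without wild-type replicate 1 and -0.04 without wild-type replicate 2. C1qc minus C1qb was -0.27 (SD 0.24) without wild-type replicate 2 and 0.19 without wild-type replicate 3, and C1qc minus C1qa ran from -0.28 to 0.02 with a mouse left out. Without both mice of column 3, C1qa minus C1qb was 0.31 (SD 0.29). Under quantile normalization C1qc minus C1qa was -0.01, C1qc minus C1qb 0.20 and C1qa minus C1qb 0.20. No direction is read from the balances. C1qc stood highest against C1qb on wild-type replicate 3, at 0.47 from their mean balance, and lowest on wild-type replicate 2, at -0.45. C1qb, C1qc and C1qa are direct neighbours on chromosome 4 in the RefSeq order of protein-coding genes.

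C4b encodes a C4 protein of the classical route and had the largest difference of the 9 genes. Wild-type replicates 1, 2 and 3 read 0.96, 1.27 and 0.40, and knockout replicates 2.15, 2.60 and 2.57. Every knockout mouse lay above every wild-type mouse, and the lowest value was that of the female. The means were 0.88 ± 0.44 against 2.44 ± 0.25 (SD, n = 3), a difference of 1.56 ± 0.45 (SE), or 2.96-fold. Columns 1, 2 and 3 gave 1.19, 1.33 and 2.17. The difference was 1.32 without the female mouse and 1.26 without the mice of column 3. Signals before scaling were also apart, at 1006 to 3470 in wild type and 6082 to 15802 in knockout.

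C4b was the single member in the authors' deposited table of 279 probes. In the authors' deposited table its centred log2 values were -0.74, -0.44 and -1.31 for the wild-type mice, whereas the knockout mice had 0.44, 0.88 and 0.84. The order of the 6 mice was that of the scanner values. C4a, a close relative in sequence, had no named probe, and whether the C4b probe also reads C4a was not tested.

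Markers of other splenic cells were read beside C4b. The summed level of 7 NK cell markers ran from 4.47 to 5.56 in wild type and from 6.28 to 8.08 in knockout, without overlap. Most of that sum was Gzma, at 4.25 to 5.36 in wild type and 6.01 to 7.91 in knockout. All 7 of 7 had a difference above 0, beside 39.3% of all entries. Gzma, Gzmb and Eomes gave 1.95, 3.19 and 1.10 without overlap, while 1.14% of all entries were higher without overlap. Klrb1c, Ncr1, Prf1 and Klrk1 gave 1.46, 0.44, 0.28 and 0.03, with overlap. Marginal zone and metallophilic macrophage markers summed to 7.39 to 7.69 in wild type and to 6.42 to 7.10 in knockout, also without overlap, and 1 of the 4 tested had a difference above 0. Of the tested genes only Marco, at -1.59, did not overlap, while 1.74% of all entries were lower without overlap. Nr1h3, Siglec1 and Cd209a gave -0.49, -0.02 and 0.68, with overlap. Cd209a was also on the dendritic cell list. Stromal and endothelial markers summed to 1.23 to 1.91 and 1.17 to 1.77, and 4 of 10, Col1a1, Col3a1, Pdgfra and Dcn, were not well above background on any array. The sums for red pulp macrophage, B cell, T cell, neutrophil, dendritic cell, monocyte and erythroid markers overlapped. Single genes of these lists did not. The T cell markers Lck, Zap70 and Cd5 gave 1.42, 1.53 and 1.18 without overlap, and the neutrophil markers Ltf and Ngp gave 1.64 and 1.35. Lower without overlap were the red pulp macrophage markers Adgre1 and Slc40a1, at -0.46 and -0.73, and the B cell marker Cr2, at -1.25. The gaps were narrow for Ngp, Adgre1 and Slc40a1. Differences lay above 0 for 7 of 7 T cell markers, 7 of 7 neutrophil markers and 0 of 11 red pulp macrophage markers. The share above 0 was 39.3% over all entries. Most red pulp macrophage markers had a mean level of at least 6, where 95.3% of entries lay below 0. The part of these cells in the C4b difference was not tested.

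C2, the protease of the classical enzyme, had nearly equal means. It read 4.76, 5.26 and 5.40 in wild type and 4.82, 4.96 and 5.74 in knockout. The means of 5.14 ± 0.33 and 5.17 ± 0.50 (SD, n = 3) gave a difference of 0.03 ± 0.47 (SE), with overlap. Before scaling, the C2 signal was 142524 on knockout replicate 3 and 32050 to 55051 on the other arrays.

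C3 encodes the protein on which all routes converge. Its brighter probe read 4.01, 4.55 and 4.32 in wild type and 3.39, 4.06 and 4.01 in knockout. The means were 4.29 ± 0.27 and 3.82 ± 0.37 (SD, n = 3), a difference of -0.47 ± 0.44 (SE), and the genotypes overlapped narrowly. The dimmer C3 probe read 3.36, 3.50 and 3.47 in wild type and 2.85, 3.12 and 3.35 in knockout, a difference of -0.33 with a narrow gap between the genotypes. Before scaling, the probes gave -0.08 and 0.05, and without knockout replicate 1 the brighter probe gave -0.26. Like Cfp, C3 lay below 0 in all columns, at -0.62, -0.48 and -0.31.

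Factor B and properdin act in the alternative route. Cfb read 1.19, 2.02 and 1.77 in wild type and 1.69, 2.14 and 1.96 in knockout, a difference of 0.27 ± 0.45 (SE) with overlap. Columns 1, 2 and 3 gave 0.50, 0.12 and 0.19 for Cfb, and without wild-type replicate 1 its difference was 0.03. Cfp, by contrast, had the lowest difference of the 9 genes.

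Cfp read 7.45, 8.18 and 8.62 in wild type and 7.34, 7.98 and 6.96 in knockout. Its means of 8.09 ± 0.59 and 7.42 ± 0.51 (SD, n = 3) gave -0.66 ± 0.51 (SE), with overlap. As for the C1q chains, the gap was widest in column 3, at -1.66 against -0.12 and -0.21. The Cfp signal varied only 1.89-fold and reached the spike-in band on 1 array. It reached the 3 brightest spike-in probes of the same array on 0 arrays. Cfp lies on the X chromosome. Its scaled level was highest in the female mouse, as were those of C1qa and C1qc. Before scaling its signal was 301538 in the female mouse and 418225 in wild-type replicate 2. The part of sex in these values was not tested. The Cfp difference was -0.39 without the female mouse and -0.17 under quantile normalization.

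C6 varied more within a genotype than between them. It read 2.95, 3.92 and 4.75 in wild type and 3.25, 3.37 and 4.78 in knockout, so the third mouse of each genotype was highest. The means of 3.87 ± 0.90 and 3.80 ± 0.85 (SD, n = 3) differed by -0.07 ± 0.64 (SE). Columns 1, 2 and 3 gave 0.31, -0.55 and 0.03 for C6, and without knockout replicate 3 its difference was -0.56.

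Profiles were compared by the root mean square difference of centred log2 levels over the 6 arrays, where a small value means a like pattern. C1qc and Cfp were the closest members, at 0.161, followed by C1qb and Cfp at 0.186, C1qa and C1qb at 0.230 and C1qa and C1qc at 0.249. C2 and Cfb, direct neighbours on chromosome 17, stood at 0.332. C4b, with 5 protein-coding genes between it and Cfb, had Cfb as its closest member, at 0.729. All these values share the same 6 arrays and their scaling.

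Among 11073 named genes (11074 for Cfp), C1qa was most like the ribosomal protein genes Rpl11, at 0.0562, and Rps13, at 0.0701. C1qb was most like Ear2, at 0.0534, and Lst1, at 0.0703. C1qc was most like Csf1r, the receptor for macrophage colony-stimulating factor, at 0.0841, and B2m, the light chain of MHC class I, at 0.109. These genes were picked as the nearest of all those compared.

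For C2 the nearest genes were Vipas39 at 0.0339 and Cd164 at 0.0551, and for C3 Abca3 at 0.0643 and Chst15 at 0.0674. Cfb had Spryd4 at 0.0475 and Chka at 0.0838. C6 had the chemokine gene Cxcl16 at 0.0814 and Unc93b1 at 0.137. Cfp had Fcer1g, the signalling chain of Fc receptors, at 0.0468, and Rnf165 at 0.103. C4b had the widest distance of the members to its nearest genes, Klra7, an NK cell receptor of the Ly49 family, at 0.259 and Haus6 at 0.277.

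The rest of the pathway was read from 46 other complement genes, of which 44 had a probe and 19 were bright enough to test. With Benjamini-Hochberg adjustment over all entries limma called 0 higher and 0 lower. In the same fit 1 had an unadjusted p below 0.05, beside 1.24% of all entries. Of the 19, 3 lay above 0 and 16 below, beside 39.3% and 60.7% of all entries. The median was -0.16, against -0.11 over all entries. With median centring or quantile normalization 7 of the 19 lay above 0. Among these 19 genes the smallest adjusted p of the limma fit was 0.999975, beside 0.25 over all entries. C3ar1, the receptor for C3a, was too dim to be tested.

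Cr2, which encodes the complement receptor CD21 of B cells and follicular dendritic cells, had the lowest difference. It read 2.08, 3.42 and 2.58 in wild type and 0.99, 1.42 and 1.90 in knockout, without overlap. The difference was -1.25 ± 0.52 (SE), and both of its tested probes lay below 0. The other 6 B cell markers lay above 0, from 0.03 for Cd79a and Pax5 to 0.80 for Fcer2a, each with overlap. The part of B cells in the Cr2 difference was not tested. Itgam, a chain of complement receptor CR3, gave -0.92 ± 0.68, with -2.72 in column 3 and another probe of opposite sign. Fcna, a ficolin of the lectin route, gave -0.61 ± 0.47, with -1.57 in column 3. Vsig4, a macrophage receptor for C3 fragments, gave -0.59 ± 0.57 with overlap. Its differences in columns 1, 2 and 3 were -0.27, -1.51 and -0.004.

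Cd93 had the highest difference, 0.88 ± 0.54 (SE), from means of 0.70 ± 0.40 and 1.57 ± 0.79 (SD, n = 3). Among regulators, Cd59a, an inhibitor of the attack complex, gave 0.24 ± 0.61, and Cd55, which dissociates the C3-cleaving enzyme, gave -0.16 ± 0.57. Serping1, the C1 inhibitor, gave 0.22 ± 1.16 and ranged from -2.14 to 1.77 within wild type alone.

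**Figure D4:**
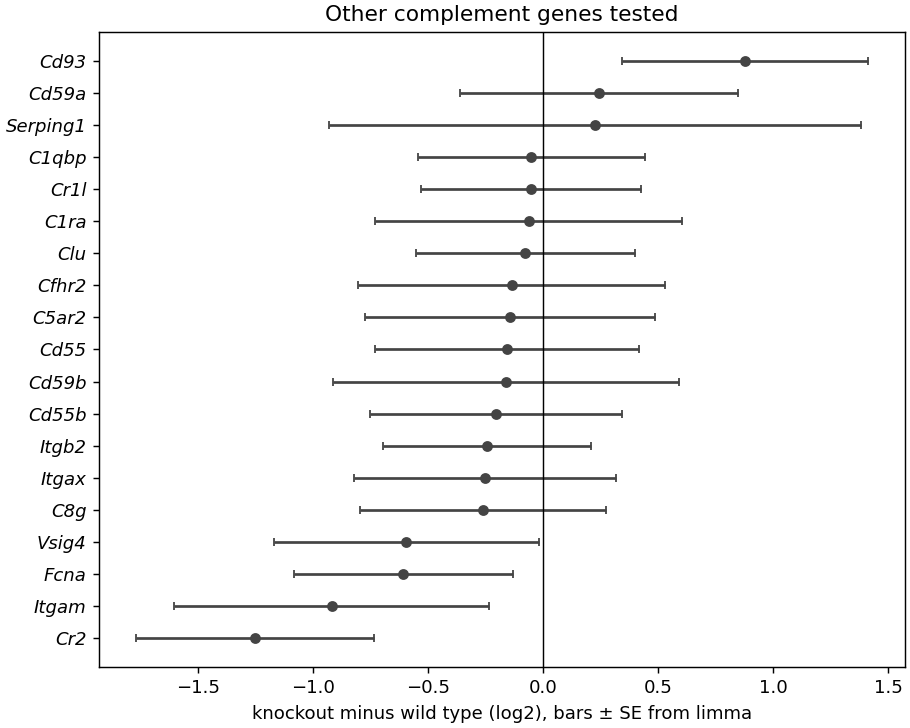
Difference between knockout and wild type on the log2 scale, with bars of ± 1 SE from limma, for the 19 other complement genes tested. Cr2 at -1.25 and Cd93 at 0.88 are the extremes.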

How the data were processed

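The file headers name Agilent Feature Extraction 10.7.3.1 as the software that read the arrays, and the submitters' processing notes give version 9.1. The deposited intensity of a spot already had its background removed and was detrended by that software, per the file headers, but was not scaled between arrays. Per the file headers the design uses build mm9, so RefSeq GRCm38 served only for names, gene order and promoters. The authors' deposited log2 table of 279 probes lay within 0.133 of percentile-scaled, probe-centred values made from the scanner files. Its column medians were 0.32, 0.34 and 0.28 (wild type), then -0.29, -0.23 and -0.26 (knockout).

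Outlier spots were left out, spots of a probe averaged, and the 75th percentile over 55681 probes subtracted. Probes well above background on at least 3 of 6 arrays were tested, each gene by its brightest probe. Limma 3.58.1 (lmFit and eBayes, R 4.3.3) was used, after a test on simulated data. Those data held independent noise for each gene and no shift shared by genes of an array. That test therefore cannot say how the fit handles such shifts. Members and lists were chosen with earlier results of these data known. Named are all members, the other complement genes with the 3 smallest p in each direction plus C3ar1, Cd55, Itgam and Vsig4, and the 2 genes most like each member, without sex-linked or predicted genes; 1 further gene of this rule is not reported here. A marker list's level is log2 of its summed scaled signals. The normexp alternative used the median spot signal in place of the mean.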

Additional observations from a re-analysis of the deposited data

How the results depend on the processing

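The C4b difference stayed between 1.26 and 1.95 over 19 alternatives (1.32 to 1.76 with a mouse left out). The genotypes did not overlap in the 17 where this was assessed, but most of these could not have shown overlap. Leaving mice out cannot create it. The filters, the mean of a gene's probes and the array column as a block left the C4b values unchanged. Only the other scalings, the normexp background and the kept outlier spots could have changed the overlap. Over 18 alternatives each, Cfb stayed above 0 (0.03 to 0.66) and C1qb (-0.81 to -0.11), C3 (-0.61 to -0.08) and Cfp (-0.98 to -0.16) below 0, with sizes that moved by over 1.5 times, while C1qa, C1qc, C2 and C6 took both signs. Members above 0 numbered 6 with quantile normalization and 2 to 4 with a mouse left out. Members without overlap numbered 2 with the mean of a gene's probes (C3 lower, C4b higher), where 3.09% of all entries did not overlap. With a mouse left out they numbered 1 to 5, beside 7.22% to 15.5% of all entries. They numbered 5 without wild-type replicate 1 (C1qb, C1qc, C3 and Cfp lower, C4b higher), where 15.5% of all entries did not overlap. Without knockout replicate 2 they numbered 3 (C3 and Cfp lower, C4b higher), where 13.3% did not. Other complement genes above 0 numbered 7 with median centring, 7 with quantile normalization, 7 with the percentile over probes well above background on all arrays, 20 of 44 with no filter on dim probes, and 4 to 9 with a mouse left out. Over all entries, those without overlap numbered 935 with no filter, 333 when well above background on all arrays was required, 3418 without both mice tagged P6 and 1329 to 2846 with a mouse left out. Entries with an unadjusted p under 0.05 numbered 345 with no filter, 110 with the all-array requirement, 581 with the array column as a block and 189 to 808 with a mouse left out. The filters change the number of genes tested, and leaving mice out leaves fewer to overlap; for the rest the cause was not tested. Limma called 0 entries after adjustment in all 17 alternatives. The median of all entries moved from -0.11 to 0.03 with median centring. No paired analysis was possible because the labels give no replicate numbers that pair mice, apart from the tag P6 shared by both mice of column 3. The block by array column pairs arrays by their place on the slide only. The percentile over spots and the unscaled signals were added after seeing the data.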
